A study of Mus musculus with 8 samples.

Results

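A list of 9 genes that mark subtypes of midbrain dopaminergic neurons was followed in ventral midbrain RNA of Ercc1 delta/+ mice and wild type mice. They are the 3 nigral markers Aldh1a1, Aldh1a7 and Kcnj6, and the 6 other markers Calb1, Calb2, Slc17a6, Slc10a4, Ntsr1 and Gucy2c. These 9 genes were a fixed list of names, found among the 15359 genes kept from the deposited count table, and all 9 passed the filter on low counts. The data were 4 libraries from Ercc1 delta/+ mice and 4 from wild type mice. All were of the mixed FVB:C57BL/6J background, and the labels used here give no age. The delta allele is a mutant allele of Ercc1, a subunit gene of a nuclease that removes damaged DNA, and it was carried in the germline rather than made in dopaminergic neurons alone. Whether the libraries came from separate animals is not stated, so every p below describes the spread between libraries, part of which may be technical.

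Dopaminergic neurons of the midbrain make dopamine from tyrosine through the products of Th and Ddc, load it into vesicles with that of Slc18a2 and take it back up with that of Slc6a3. Those of the ventral substantia nigra, the neurons most prone to die in Parkinson disease, are known for strong expression of Aldh1a1 and Kcnj6. Neurons of the dorsal tier and of the ventral tegmental area, which are relatively spared, more often hold calbindin, the product of Calb1. None of the 9 genes is private to dopaminergic neurons, and the calcium-binding protein genes and Slc17a6 are also used by many neurons of the thalamus, hypothalamus and brainstem.

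Expression was measured as normalised CPM (counts scaled to library size, with trimmed mean of M-values factors), at depths of 18303913 to 31261889 counts per library. The defining gene of the tissue, Th, was present in every library, with between 31.9 and 64.8 CPM in the Ercc1 delta/+ libraries and between 44.8 and 67.3 CPM in the wild type libraries. Ercc1 itself lay between 10.2 and 12.9 CPM in Ercc1 delta/+ and between 13.8 and 15.3 CPM in wild type, on the side each label gives, with a log2 fold change of -0.34 (SE 0.10) that missed the threshold of the edgeR quasi-likelihood test (adjusted p = 0.113). Over all genes, 7 of 15074 (0.0464%) passed an adjusted p of 0.05, 2 higher and 5 lower in Ercc1 delta/+. Libraries differed in the levels of markers of neighbouring regions, and the values that touch the 9 markers are given beside them.

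None of the 9 markers passed that threshold. Of the 9 log2 fold changes of Ercc1 delta/+ over wild type, 3 were positive and 6 negative with a median of -0.21, where the median of all 15074 genes was -0.00 and 7455 of them were positive. At an unadjusted p of 0.05, 1 marker, Kcnj6, counted by the quasi-likelihood test, DESeq2 and limma-voom alike, and by the edgeR exact test the 3 markers Calb1, Kcnj6 and Slc17a6 did. The share of all genes under that unadjusted p was 18.7% by the quasi-likelihood test, 19.4% by DESeq2 and 19.1% by limma-voom, so 1 of 9 is no more than the background. By the exact test it was 13.6% of all genes, below the share of 3 of 9, and after adjustment 0 of the 9 passed that test too. In 0 of the 9 genes did all Ercc1 delta/+ libraries lie above all wild type libraries, an arrangement seen in 5.17% of all genes, and in 0 did they lie below, which was seen in 6.88% of all genes. In bulk tissue, fewer cells of a type and less RNA per cell cannot be told apart.

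**Figure D1:**
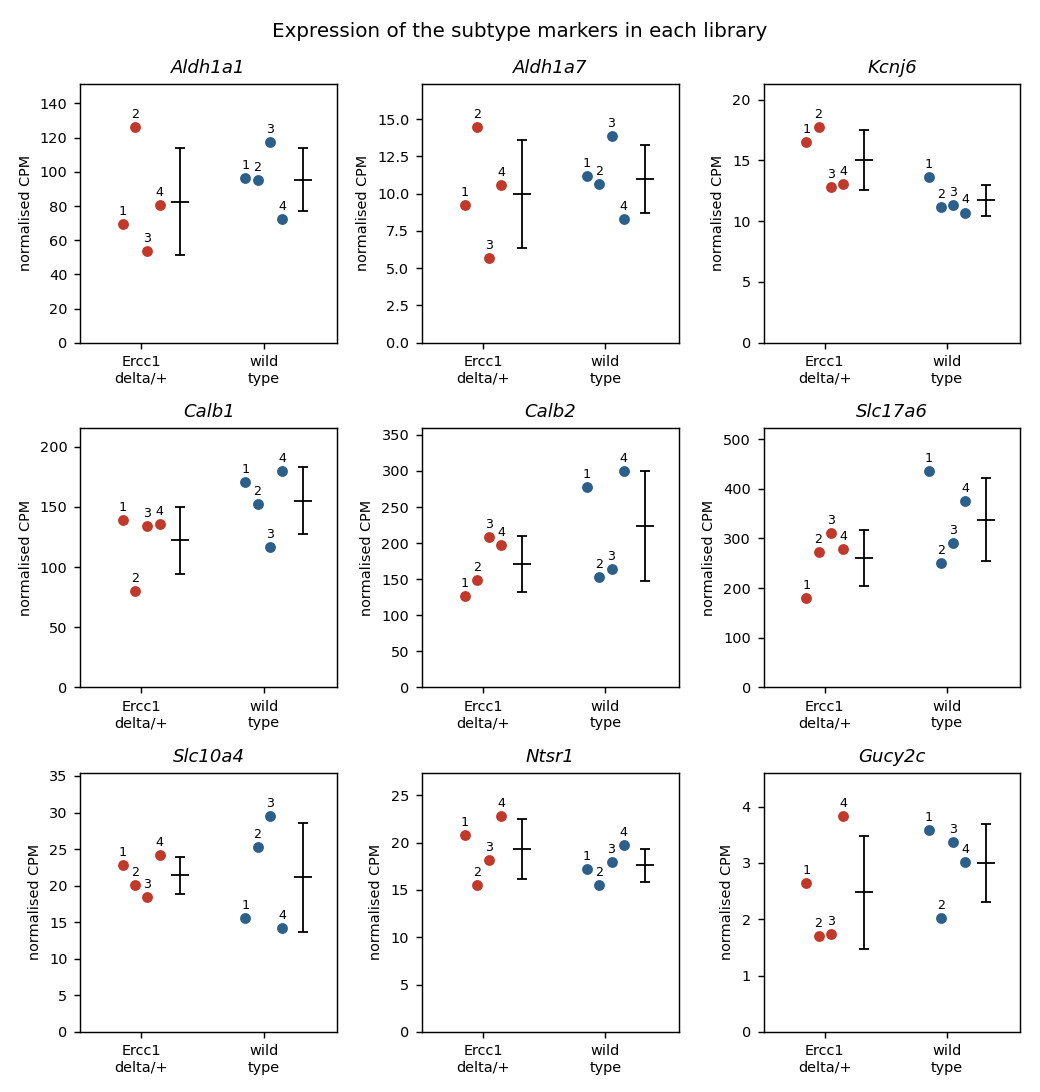
Normalised CPM of each of the 9 markers (vertical axes, starting at 0) in the 4 Ercc1 delta/+ libraries (red) and the 4 wild type libraries (blue), numbered by replicate, with bars for mean and SD. The groups overlap in every panel, and Calb1 of Ercc1 delta/+ replicate 2 (80.2 CPM) lies apart from the other 3 mutant libraries.

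**Figure D2:**
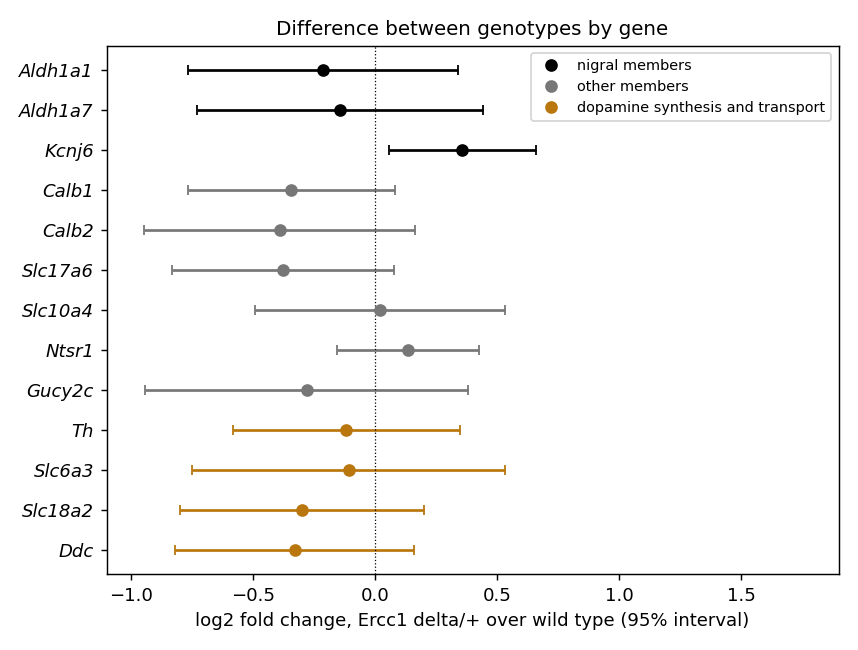
Log2 fold change of Ercc1 delta/+ over wild type with its 95% interval for the nigral markers (black), the other markers (grey) and 4 genes of dopamine synthesis and transport (ochre). The interval of Kcnj6, from 0.06 to 0.66 before adjustment for multiple tests, is the one among these 13 genes that does not span 0.

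Aldh1a1 and Aldh1a7 encode cytosolic aldehyde dehydrogenases. The product of Aldh1a1 oxidises retinaldehyde to retinoic acid and also clears the aldehyde formed from dopamine, and Aldh1a7 is its close rodent paralogue. Both lie on chromosome 19. Their sequences are shown because they set how well counts of the pair can be separated and because their levels moved together. The first 120 coding bases (transcripts of the GRCm38 build) read as follows, with the 10 bases that differ in capitals.
Aldh1a1: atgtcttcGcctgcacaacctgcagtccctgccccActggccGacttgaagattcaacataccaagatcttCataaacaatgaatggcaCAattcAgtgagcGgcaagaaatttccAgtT
Aldh1a7: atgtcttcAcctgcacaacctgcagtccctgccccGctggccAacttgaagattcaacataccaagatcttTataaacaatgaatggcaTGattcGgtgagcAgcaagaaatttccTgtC
Over the whole coding sequence, 1380 of 1506 bases (91.63%) were identical. Of the 2017 stretches of 50 bases in the Aldh1a7 transcript, 151 (7.486%) also occurred in the Aldh1a1 transcript. How reads that fit both genes were counted is not stated in those sources used here, so the level of Aldh1a7 is uncertain. The share of common stretches does not bound that uncertainty, because Aldh1a1 CPM was 7.50 to 9.38 times that of Aldh1a7.

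Aldh1a1 held 69.3, 126, 53.6 and 80.3 CPM in Ercc1 delta/+ replicates 1 to 4, against 96.1, 95.1, 118 and 72.5 CPM in wild type replicates 1 to 4. The highest and the lowest of the 8 libraries were both mutant, replicate 2 and replicate 3, and the wild type values lay between them. The means were 82.4 ± 31.3 CPM in Ercc1 delta/+ and 95.3 ± 18.4 CPM in wild type (± SD, 4 libraries each). The log2 fold change was -0.21 (SE 0.25, 95% interval -0.76 to 0.34, edgeR adjusted p = 0.677), with changes of either sign inside that interval. Mutant replicates 2 and 3 pulled this value in opposite directions: it was -0.49 without replicate 2 (unadjusted p = 0.0247, adjusted p = 0.179) and -0.05 without replicate 3.

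Aldh1a7 held 9.24, 14.5, 5.71 and 10.6 CPM in the Ercc1 delta/+ libraries, against 11.2, 10.6, 13.8 and 8.28 CPM in the wild type libraries. The order of the libraries was nearly that of Aldh1a1, with mutant replicate 2 highest and mutant replicate 3 lowest. Its log2 fold change was -0.14 (SE 0.26, 95% interval -0.73 to 0.44, edgeR adjusted p = 0.808).

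The pair kept a nearly fixed ratio while both genes varied. Aldh1a1 counts exceeded those of Aldh1a7 7.50, 8.73, 9.38 and 7.61 times in Ercc1 delta/+ replicates 1 to 4, against 8.60, 8.94, 8.50 and 8.76 times in wild type replicates 1 to 4. The mean ratio was 8.30 ± 0.905 in Ercc1 delta/+ and 8.70 ± 0.193 in wild type (SD, n = 4 each), and both the lowest and the highest ratio were of mutant libraries. Across the 8 libraries the log2 CPM values of the pair had Pearson's r = 0.966 and Spearman's rho = 0.976. By exact permutation tests, two-sided and adjusted by the Benjamini-Hochberg method over 55 relations, p was 0.0109 for r and 0.0218 for rho. Without the 2 libraries farthest from the median, mutant replicates 2 and 3, r was 0.929, and after the group means were taken out of all 8 libraries it was 0.969. Reads shared between the transcripts could add to this relation, and their part was not tested.

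**Figure D3:**
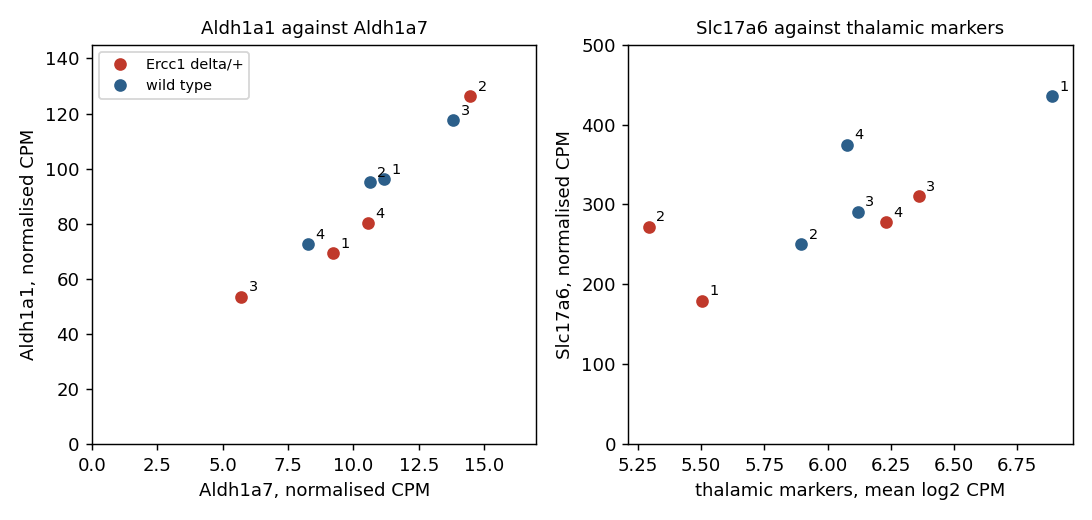
Left, Aldh1a1 against Aldh1a7, both in normalised CPM, with 1 point per library numbered by replicate (Ercc1 delta/+ red, wild type blue), where mutant replicate 3 is lowest and mutant replicate 2 highest on both axes. Right, Slc17a6 in normalised CPM against the mean log2 CPM of 5 thalamic neuron markers, where wild type replicate 1 is highest on both axes.

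Because the 2 genes moved together across libraries, their upstream windows were compared. RefSeq promoter windows of GRCm38.p6 gave the 250 bases before each start, for Aldh1a1 at chr19:20601718-20601967 on the plus strand and for Aldh1a7 at chr19:20727557-20727806 on the minus strand. The capitals mark the longest run common to both, 65 bases.
Aldh1a1: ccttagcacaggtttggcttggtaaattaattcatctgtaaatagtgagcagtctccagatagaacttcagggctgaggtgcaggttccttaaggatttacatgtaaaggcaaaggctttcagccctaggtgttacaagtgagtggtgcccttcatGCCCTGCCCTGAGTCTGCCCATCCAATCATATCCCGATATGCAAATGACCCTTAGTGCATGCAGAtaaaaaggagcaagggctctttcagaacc
Aldh1a7: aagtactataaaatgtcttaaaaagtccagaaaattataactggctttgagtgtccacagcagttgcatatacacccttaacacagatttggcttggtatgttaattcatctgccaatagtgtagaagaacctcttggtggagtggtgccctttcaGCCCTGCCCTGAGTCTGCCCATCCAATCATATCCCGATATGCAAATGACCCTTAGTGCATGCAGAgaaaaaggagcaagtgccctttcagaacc
A second annotated Aldh1a1 start shared a run of only 8 bases with the Aldh1a7 window. The Aldh1a1 start shown was chosen because its window held the longer run, so the 65 bases come from a window selected for likeness. Within the shared run lies the octamer ATGCAAAT, which occurred on either strand in 1.6% of 32851 windows of the same length. The CCAAT box CCAATCA also lies in it and occurred in 7.23% of windows, and the matches of the 2 motifs do not overlap. AAAGGTCA, the letters bound by orphan receptors of the Nr4a family, was in neither window and in 1.34% of all. These matches describe letters only.

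The levels of both enzymes were also set against the genes of dopamine synthesis and transport. Th stood at 46.2, 57.6, 31.9 and 64.8 CPM in Ercc1 delta/+ replicates 1 to 4, against 53.6, 44.8, 67.3 and 51.3 CPM in wild type replicates 1 to 4. Mutant replicate 3 was lowest for Th as it was for Aldh1a1 and Aldh1a7. Aldh1a1 CPM was 1.65 ± 0.404 times Th CPM in Ercc1 delta/+ and 1.77 ± 0.290 times in wild type (SD, n = 4 each). With the mean log2 CPM of Th, Slc6a3, Slc18a2 and Ddc across the 8 libraries, Aldh1a7 had r = 0.877 and rho = 0.714, and Aldh1a1 had r = 0.818 and rho = 0.762. Neither relation passed the exact permutation test after adjustment over the 55 relations (p = 0.117 for r and 0.288 for rho in both). Without mutant replicate 3 and wild type replicate 3, r was 0.603 for Aldh1a7 and 0.515 for Aldh1a1, so the relations rested in part on those libraries.

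Kcnj6 encodes a subunit of the G protein-gated inwardly rectifying potassium channel that dopamine autoreceptors open. It was the one nigral marker with a positive difference. It held 16.5, 17.8, 12.8 and 13.0 CPM in Ercc1 delta/+ replicates 1 to 4, against 13.6, 11.2, 11.3 and 10.7 CPM in wild type replicates 1 to 4. Mutant replicates 1 and 2 lay above every wild type library, and mutant replicates 3 and 4 lay below wild type replicate 1 and above the other 3. The means were 15.0 ± 2.49 CPM in Ercc1 delta/+ and 11.7 ± 1.29 CPM in wild type (± SD, 4 libraries each), 1.28 times as high in the mutant. The log2 fold change of 0.36 (SE 0.13, 95% interval 0.06 to 0.66) had an unadjusted p of 0.0246 and an adjusted p of 0.202 by edgeR, which ranked 1830 among all genes by p. With 1 library left out in turn it ran from 0.27 to 0.44, and the unadjusted p from 0.0126 to 0.0692.

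The deposited table held 4 RefSeq transcripts of Kcnj6, and the values above are those of NM_001025584, the one with the highest total. The transcripts share most of their sequence and therefore reads, so they are not separate measurements. The ends of the 2 most abundant ones are shown because the choice between them decides whether the groups overlap. Their coding sequences, on chromosome 16 in GRCm38, are alike for the first 1241 bases and then part, with the last 45 bases given here and those after the common stretch in capitals.
NM_001025584: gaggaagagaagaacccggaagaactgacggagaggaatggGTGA
NM_010606: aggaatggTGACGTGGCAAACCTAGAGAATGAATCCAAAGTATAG
The coding sequence is 1245 bases long in NM_001025584 and 1278 bases in NM_010606.

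NM_010606 held 16.8, 16.6, 13.2 and 13.2 CPM in Ercc1 delta/+ replicates 1 to 4, against 12.5, 9.99, 10.2 and 9.92 CPM in wild type replicates 1 to 4. Here every mutant library lay above every wild type library, with means of 14.9 ± 2.07 CPM in Ercc1 delta/+ and 10.7 ± 1.23 CPM in wild type (± SD, 4 libraries each). The same held for NM_001025585, with 7.40 to 10.01 CPM in Ercc1 delta/+ against 5.48 to 7.17 CPM in wild type. It also held for NM_001025590, with 5.53 to 7.58 CPM in Ercc1 delta/+ against 4.26 to 5.24 CPM in wild type. Over all 19602 transcript rows tested, 5.5% had every mutant library above every wild type library. The sum of the 4 transcripts ran from 39.1 to 52.0 CPM in Ercc1 delta/+ and from 30.4 to 38.5 CPM in wild type, again without overlap.

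With every transcript tested in its own row, 0.0204% of rows (4 of 19602) passed the edgeR quasi-likelihood test, and no Kcnj6 transcript was among them. The log2 fold change was 0.48 (SE 0.12, adjusted p = 0.0977) for NM_010606, and 0.48 (SE 0.14, adjusted p = 0.113) for NM_001025585. It was 0.47 (SE 0.15, adjusted p = 0.145) for NM_001025590, and 0.35 (SE 0.13, adjusted p = 0.204) for NM_001025584. With the 4 transcripts summed, the log2 fold change of the gene was 0.44 (adjusted p = 0.106). In the authors' deposited table the 4 log2 fold changes lay between 0.33 and 0.47, with adjusted p between 0.121 and 0.338.

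**Figure D4:**
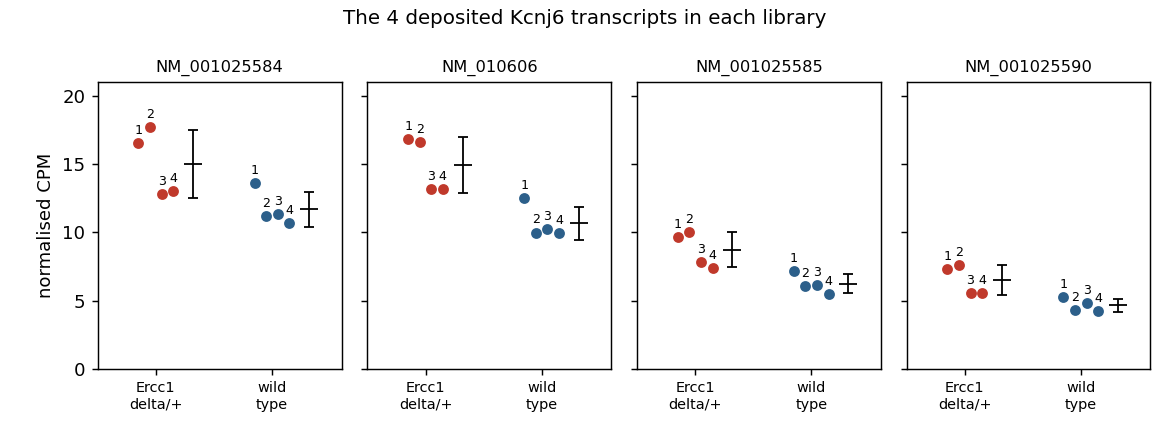
Normalised CPM of the 4 deposited Kcnj6 transcripts on a common axis from 0, with 1 point per library numbered by replicate and bars for mean and SD. The Ercc1 delta/+ libraries (red) lie above all wild type libraries (blue) for NM_010606, NM_001025585 and NM_001025590, and overlap with wild type replicate 1 for NM_001025584.

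No relation of Kcnj6 to the dopaminergic genes was detected across the 8 libraries. Its r with the mean of Th, Slc6a3, Slc18a2 and Ddc was -0.05 (rho = 0.071, p = 0.932 for r and 0.990 for rho by exact permutation tests adjusted over the 55 relations). Kcnj6 CPM was 0.357, 0.308, 0.402 and 0.201 times Th CPM in Ercc1 delta/+ replicates 1 to 4, against 0.254, 0.249, 0.168 and 0.209 times in wild type replicates 1 to 4. Mutant replicates 1, 2 and 3 lay above every wild type library, and mutant replicate 4 lay among them. Kcnj6 is also expressed in cortex and hippocampus, and the 6 markers of cortical and hippocampal neurons, which include Camk2a and Slc17a7, summed to between 1204 and 3142 CPM in Ercc1 delta/+ and between 684 and 2188 CPM in wild type. All 6 of these genes had positive log2 fold changes with a median of 1.14, and 0 passed the test. Kcnj6 and their mean log2 CPM had r = 0.809 and rho = 0.714 (p = 0.135 for r and 0.288 for rho by exact permutation tests adjusted over the 55 relations). Without mutant replicates 1 and 2, in which the cortical markers were highest, r was 0.233, so that relation rested on those 2 libraries. In a fit with the cortical mean as a term, chosen after the data were seen, the log2 fold change of Kcnj6 was 0.19 (edgeR adjusted p = 0.428). With the mean of Th, Slc6a3, Slc18a2 and Ddc as the term it was 0.39, and with that of the choroid plexus markers 0.32. It was 0.30 with the mean of the thalamic markers and 0.30 with a term for the 4 shallowest libraries, and none of these passed the threshold.

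The calcium-binding markers were lower on average in Ercc1 delta/+ but overlapped with wild type. Calb1, which encodes calbindin, held 139, 80.2, 134 and 135 CPM in Ercc1 delta/+ replicates 1 to 4, against 171, 153, 117 and 180 CPM in wild type replicates 1 to 4. Mutant replicates 1, 3 and 4 lay close together, mutant replicate 2 was the lowest of all, and wild type replicate 3 lay below the other 3 mutant libraries. The means were 122 ± 28.0 CPM in Ercc1 delta/+ and 155 ± 27.8 CPM in wild type (± SD, 4 libraries each). The log2 fold change was -0.34 (SE 0.19, 95% interval -0.77 to 0.08, edgeR adjusted p = 0.360). It was -0.19 without mutant replicate 2, and ran down to -0.46 without wild type replicate 3.

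Calb2, which encodes calretinin, held 127, 149, 209 and 197 CPM in Ercc1 delta/+ replicates 1 to 4, against 278, 153, 164 and 300 CPM in wild type replicates 1 to 4. Wild type replicates 1 and 4 stood above all mutant libraries, and wild type replicates 2 and 3 stood among them. The means were 170 ± 38.7 CPM in Ercc1 delta/+ and 224 ± 75.9 CPM in wild type (± SD, 4 libraries each), and the log2 fold change was -0.39 (SE 0.25, 95% interval -0.95 to 0.16, edgeR adjusted p = 0.426). The coding sequences of Calb1 and Calb2 were identical at 65.69% of 781 aligned bases, so reads of these paralogues are told apart more easily than those of Aldh1a1 and Aldh1a7.

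Slc17a6 encodes a vesicular glutamate transporter, held by the dopaminergic neurons that also release glutamate and by glutamatergic neurons of the thalamus and midbrain. It held 180, 272, 310 and 278 CPM in Ercc1 delta/+ replicates 1 to 4, against 435, 250, 291 and 375 CPM in wild type replicates 1 to 4. As for Calb2, wild type replicates 1 and 4 were the highest of the 8, and mutant replicate 1 was the lowest. The means were 260 ± 56.1 CPM in Ercc1 delta/+ and 338 ± 83.2 CPM in wild type (± SD, 4 libraries each), and the log2 fold change was -0.38 (SE 0.20, 95% interval -0.83 to 0.08, edgeR adjusted p = 0.349). In the authors' deposited table Slc17a6, Calb2 and Calb1 had log2 fold changes of -0.40, -0.42 and -0.34 with adjusted p of 0.257, 0.319 and 0.298.

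Calb2 and Slc17a6 deviated together from their group means (r = 0.89 over the 8 libraries, a description without a test), and the ratio of Slc17a6 to Calb2 CPM was 1.53 ± 0.195 in Ercc1 delta/+ and 1.56 ± 0.222 in wild type (SD, n = 4 each). Markers of neighbouring regions were set beside both. The 5 thalamic neuron markers, which include Tcf7l2, summed to between 331 and 741 CPM in Ercc1 delta/+ and between 496 and 974 CPM in wild type. All 5 had negative log2 fold changes with a median of -0.35, and 0 passed the test. With the mean log2 CPM of this list, Slc17a6 had r = 0.751 and rho = 0.762, and Calb2 had r = 0.746 and rho = 0.738 (p = 0.168 for r and 0.288 for rho in both, by exact permutation tests adjusted over the 55 relations). Without mutant replicate 2 and wild type replicate 1, r was 0.804 for Slc17a6 and 0.642 for Calb2. With the cortical mean both had negative relations that did not pass either, r = -0.83 and rho = -0.86 for Calb2 (p = 0.117 and 0.288) and r = -0.72 and rho = -0.79 for Slc17a6 (p = 0.186 and 0.288), by the same exact permutation tests. Without mutant replicates 1 and 2, r was -0.74 for Calb2 and -0.62 for Slc17a6. Fits with 1 added term did not bring either gene past the threshold. With the mean of Th, Slc6a3, Slc18a2 and Ddc as the term, the log2 fold change was -0.46 for Calb2 and -0.40 for Slc17a6. With the mean of the choroid plexus markers it was -0.32 for Calb2 and -0.40 for Slc17a6. The log2 fold change of Calb2 was -0.03 with the cortical mean, -0.17 with the thalamic mean and -0.10 with a depth term that marks the 4 shallowest libraries. That of Slc17a6 was -0.17 with the cortical mean, -0.18 with the thalamic mean and -0.14 with the depth term. The 4 shallowest libraries were mutant replicates 1, 2 and 4 and wild type replicate 2, so depth and genotype are partly confounded in that fit. With 1 library left out in turn, Calb2 ran from -0.53 without wild type replicate 2 to -0.22 without wild type replicate 4, and Slc17a6 from -0.50 without wild type replicate 2 to -0.23 without wild type replicate 1.

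The 5 hypothalamic and mammillary markers summed to between 34.9 and 178 CPM in Ercc1 delta/+ and between 159 and 361 CPM in wild type, with 4 negative log2 fold changes, a median of -0.82 and 0 past the test. Their mean log2 CPM was 2.98, 2.56, 3.46 and 3.57 in Ercc1 delta/+ replicates 1 to 4, against 4.12, 3.70, 3.79 and 4.33 in wild type replicates 1 to 4, so the groups did not overlap. Foxb1, a transcription factor gene of the mammillary body, held 4.05 to 5.44 CPM in Ercc1 delta/+ against 6.99 to 13.4 CPM in wild type (log2 fold change -1.01, SE 0.22, edgeR adjusted p = 0.071). Calb1 had r = 0.827 and rho = 0.690 with the hypothalamic mean (p = 0.117 for r and 0.294 for rho), Calb2 had r = 0.784 and rho = 0.762 (p = 0.144 and 0.288), and Kcnj6 had r = -0.85 and rho = -0.71 (p = 0.117 and 0.288), by exact permutation tests adjusted over the 55 relations. Without mutant replicate 2 and wild type replicate 4, r was 0.374 for Calb1, 0.737 for Calb2 and -0.61 for Kcnj6. In a fit with this mean as a term, also chosen after the data were seen, the log2 fold changes were 0.20 for Calb1, 0.37 for Calb2, 0.02 for Slc17a6 and 0.05 for Kcnj6, none of them past the threshold. Since the hypothalamic markers separate the groups completely, their share and the genotype cannot be told apart in that fit.

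The last 3 markers showed the smallest levels or differences. Slc10a4, an orphan transporter of monoaminergic and cholinergic synaptic vesicles, held 22.8, 20.1, 18.5 and 24.2 CPM in Ercc1 delta/+ replicates 1 to 4, against 15.6, 25.2, 29.5 and 14.2 CPM in wild type replicates 1 to 4. The mutant libraries lay close together, and the wild type libraries held both the lowest pair and the highest pair of values. The means were 21.4 ± 2.59 CPM in Ercc1 delta/+ and 21.1 ± 7.46 CPM in wild type (± SD, 4 libraries each), for a log2 fold change of 0.02 (SE 0.23, 95% interval -0.49 to 0.53, edgeR adjusted p = 0.971) whose sign turned under upper-quartile scaling. The 2 wild type libraries low in Slc10a4, replicates 1 and 4, were those high in Calb2 and Slc17a6. Over the 8 libraries the deviations of Slc10a4 and Calb2 from their group means had r = -0.81, a description without a test.

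Ntsr1 encodes a receptor for neurotensin, a peptide that excites dopaminergic neurons. It held 20.8, 15.5, 18.2 and 22.8 CPM in Ercc1 delta/+ replicates 1 to 4, against 17.3, 15.5, 17.9 and 19.7 CPM in wild type replicates 1 to 4. The groups overlapped over most of their range, with mutant replicates 1 and 4 highest. The log2 fold change was 0.13 (SE 0.13, 95% interval -0.16 to 0.43, edgeR adjusted p = 0.607), and it was 0.05 without mutant replicate 4 and 0.23 without mutant replicate 2. Among its partners, Nts, the neurotensin gene, held 3.22 to 15.7 CPM in Ercc1 delta/+ against 13.9 to 21.1 CPM in wild type, for a log2 difference of -0.66 (SE 0.37, adjusted p = 0.370). Sort1, which encodes the sorting receptor that also binds neurotensin, held 403 to 585 CPM in Ercc1 delta/+ against 287 to 446 CPM in wild type, for a log2 difference of 0.37 (SE 0.16, adjusted p = 0.257).

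Gucy2c encodes the guanylyl cyclase receptor known from the intestine, where guanylin and uroguanylin activate it, and found in dopaminergic neurons of the midbrain. It was the scarcest marker, with 2.65, 1.70, 1.73 and 3.84 CPM in Ercc1 delta/+ replicates 1 to 4, against 3.58, 2.03, 3.38 and 3.01 CPM in wild type replicates 1 to 4. These CPM rest on 30 to 84 counts per library in Ercc1 delta/+ and 41 to 99 counts per library in wild type. Both groups spanned nearly the same range, and the log2 fold change was -0.28 (SE 0.29, 95% interval -0.94 to 0.38, edgeR adjusted p = 0.642). It was -0.57 without mutant replicate 4 and -0.13 without mutant replicate 3. The genes of its ligands, Guca2a and Guca2b, were not among the genes tested. Its mean log2 relation with the choroid plexus markers was r = -0.76 and rho = -0.79 (p = 0.167 and 0.288 by exact permutation tests adjusted over the 55 relations), and r was -0.42 without mutant replicates 2 and 3. Those 8 choroid plexus markers summed to between 387 and 2011 CPM in Ercc1 delta/+ and between 313 and 564 CPM in wild type, all with positive log2 fold changes and 0 past the test, and their part in the Gucy2c values was not tested beyond a fit with their mean as a term, in which its log2 fold change was 0.15.

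Per kilobase of transcript, which allows levels of different genes to be set side by side, the markers spanned a wide range. Calb2 led with 119 ± 27.1 CPM per kilobase in Ercc1 delta/+ and 156 ± 53.0 in wild type (SD, n = 4 each, here and below). Slc17a6 came next with 62.9 ± 13.6 CPM per kilobase in Ercc1 delta/+ and 81.6 ± 20.1 in wild type, below every Calb2 library of its group. Aldh1a1 and Calb1 followed, at 40.1 ± 15.2 and 28.9 ± 6.64 CPM per kilobase in Ercc1 delta/+, and at 46.4 ± 8.97 and 36.7 ± 6.59 in wild type. The libraries of Aldh1a1 and Calb1 overlapped in both groups, and those of Slc17a6 and Aldh1a1 overlapped in Ercc1 delta/+ but not in wild type.

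Slc10a4 lay well below Calb1, at 10.2 ± 1.23 CPM per kilobase in Ercc1 delta/+ and 10.03 ± 3.54 in wild type, without overlap in either group. Kcnj6, Ntsr1 and Aldh1a7 formed a lower tier whose libraries overlapped in both groups, with Kcnj6 taken from NM_001025584 alone. That transcript averaged 15.0 CPM in Ercc1 delta/+ and 11.7 CPM in wild type. All deposited Kcnj6 transcripts summed averaged 45.2 CPM in Ercc1 delta/+ and 33.2 CPM in wild type. How reads were shared among them is not stated, so the place of Kcnj6 in this order is uncertain. Kcnj6 stood at 6.36 ± 1.05 CPM per kilobase in Ercc1 delta/+ and 4.95 ± 0.548 in wild type, and Ntsr1 at 4.94 ± 0.816 in Ercc1 delta/+ and 4.49 ± 0.450 in wild type. Aldh1a7 stood at 4.84 ± 1.75 CPM per kilobase in Ercc1 delta/+ and 5.31 ± 1.10 in wild type. Gucy2c was last in both groups, at 0.626 ± 0.254 CPM per kilobase in Ercc1 delta/+ and 0.758 ± 0.174 in wild type, and no library of it reached the range of another marker.

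The nigral markers were then contrasted with the others within each library, as the mean log2 CPM of the 3 nigral genes minus that of the other 6. This difference was -0.86, -0.13, -1.40 and -1.17 in Ercc1 delta/+ replicates 1 to 4, against -1.09, -0.87, -0.81 and -1.45 in wild type replicates 1 to 4. Mutant replicate 2 stood above all other libraries, and the remaining 3 mutant libraries fell within the wild type range. The means were -0.89 ± 0.55 in Ercc1 delta/+ and -1.06 ± 0.29 in wild type (SD, n = 4 each), 0.17 higher in Ercc1 delta/+, which is less than the SD of either group. Without mutant replicate 2 the difference between the group means was -0.09, so its sign rested on that library, in which Calb1 was low and Aldh1a1 high. Since the genes were chosen with results known, no p is given for this score.

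Against Th, Slc6a3, Slc18a2 and Ddc in place of the other 6 markers, the nigral mean lay at -1.12, -1.01, -1.13 and -1.55 in Ercc1 delta/+ replicates 1 to 4, against -1.25, -1.15, -1.67 and -1.53 in wild type replicates 1 to 4. The groups overlapped, and Ercc1 delta/+ was 0.20 higher on average. Kcnj6 differed in sign from Aldh1a1 and Aldh1a7, so the mean over the 3 nigral markers averages values of both signs. Without Aldh1a7 the contrast with the other 6 markers gave 0.24.

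**Figure D5:**
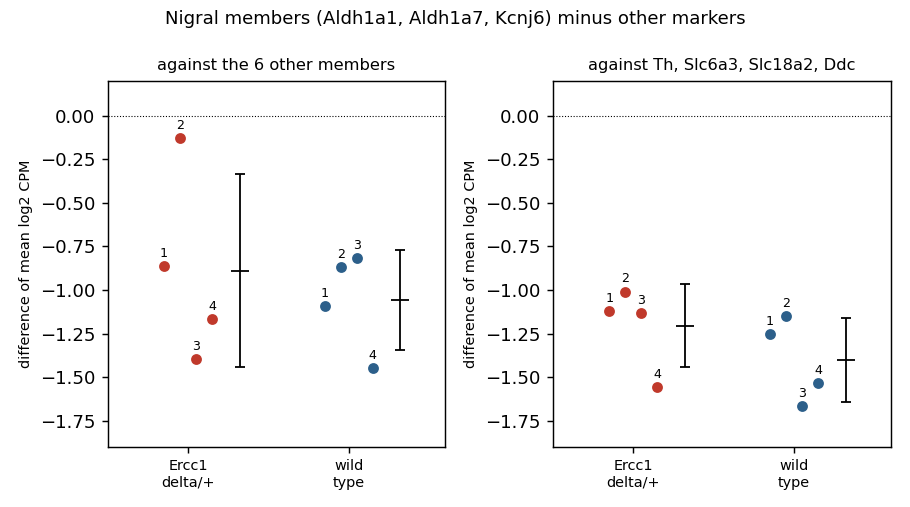
Mean log2 CPM of Aldh1a1, Aldh1a7 and Kcnj6 minus that of the other 6 markers (left) and minus that of Th, Slc6a3, Slc18a2 and Ddc (right), with 1 point per library numbered by replicate and bars for mean and SD. The Ercc1 delta/+ libraries (red) and the wild type libraries (blue) overlap in both panels, and mutant replicate 2 at -0.13 is the highest point on the left.

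Wider lists gave the setting of the 9 markers, with 0 genes past the edgeR threshold in each. Of the 18 general dopaminergic genes, 3 had positive and 15 negative log2 fold changes with a median of -0.10, so small negative values were shared by most of them. Th stood at -0.12 (adjusted p = 0.801), the dopamine transporter gene Slc6a3 at -0.11 (adjusted p = 0.874), Slc18a2 at -0.30 (adjusted p = 0.504) and Ddc at -0.33 (adjusted p = 0.447). The smallest p of the 18 was that of Chrnb3, at -0.45 (adjusted p = 0.235). Nr4a2, the orphan receptor gene that maintains these neurons and among the 3 positive genes, stood at 0.50 (adjusted p = 0.301). Of 8 further genes enriched in the substantia nigra, 6 were positive with a median of 0.14, and Satb1, a chromatin organiser of nigral neurons, stood at 0.39 (adjusted p = 0.278). Of 10 further genes enriched in the ventral tegmental area, 8 were positive with a median of 0.53. In that list Neurod6 (1.91, adjusted p = 0.325) is also a cortical marker, Otx2 is also a choroid plexus marker, and the neuropeptide gene Adcyap1 stood at -0.41 (adjusted p = 0.250). The values of both enriched lists are levels in bulk tissue, and the part of cells other than dopaminergic neurons in them was not tested. Of 11 family members and partners of the 9 markers that were tested, 6 were positive and 5 negative with a median of 0.06.

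Markers of other cells of the region were also looked at, again with 0 genes past the threshold. The median log2 fold change was 0.02 for 6 GABAergic genes, 0.12 for 5 genes of red nucleus and brainstem cholinergic neurons, -0.02 for astrocytes, -0.07 for oligodendrocytes and 0.01 for microglia (6 genes each for the glial lists). It was 0.21 for 5 endothelial genes and 0.42 for 5 meningeal genes. The 2 serotonergic genes tested summed to 0.578 CPM in the lowest and 85.3 CPM in the highest Ercc1 delta/+ library, against 1.19 and 94.1 CPM in wild type. Libraries of 1 group thus differed widely in the levels of these genes. The part of these lists in the values of the 9 markers was not tested beyond the fits named here.

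Across all genes with a mean of at least 1 CPM, likeness to each marker was described by the r of deviations from the group means over the 8 libraries, among 14257 genes ranked. Closest to Aldh1a1 were Atp6ap1 (r = 0.994), Akr1b10 (0.991) and En1 (0.988), the last a homeobox gene of the general dopaminergic list, and Aldh1a7 ranked 12th. Other genes of that list ranked far lower for Aldh1a1, with Ddc 853rd, Slc18a2 949th, Slc6a3 1242nd and Th 1402nd. Closest to Aldh1a7 were Commd6 (0.985), Dctn5 (0.983) and St3gal1 (0.978). Kcnj6 was closest to the potassium channel subunit gene Kcng2 (0.975), Calb1 to Sin3b (0.989), Calb2 to Usp29 (0.982) and Slc17a6 to Cd99l2 (0.982). Slc10a4 was closest to Gm5868 (0.973), Ntsr1 to Mok (0.986) and Gucy2c to Spata5 (0.958). With so many genes and 8 libraries, high values of r arise in some genes for any marker, and these names describe the libraries only. Between markers, Aldh1a1 and Calb1 deviated in opposite directions (r = -0.87) and Gucy2c and Ntsr1 in the same direction (r = 0.84).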

How the data were processed

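Messenger RNA of the ventral midbrain was sequenced from poly(A)-selected, fragmented RNA, per the labels' protocols, with all barcoded libraries pooled in 1 lane. Per the submitters' processing notes, TopHat 1.3.1 and edgeR were used with the mm9 build. Which tool counted the reads, and how it treated strand and reads of several places, is not given in the sources used here. The authors deposited whole-number counts for 19931 coding RefSeq transcripts in 8 libraries, and the lowest row total was 31. The deposited log2 fold changes, p-values and adjusted p-values are the authors' own comparison.

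Of these rows, 19456 were matched to symbols through a RefSeq table of GRCm38.p6 and GENCODE M21, and 475 were kept by identifier. These references differ from mm9 and served for names, lengths, GC content and sequences. Coding and transcript sequences are credited to GENCODE M21 on GRCm38 and upstream windows to RefSeq on GRCm38.p6. For each of 2832 genes with several rows the row of highest total was used, and 152 genes identical in all libraries to another were dropped, which left 15359 genes.

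Counts were tested with edgeR 4.0.16 (R 4.3.3) by its quasi-likelihood method after TMM scaling and filterByExpr (15074 genes), two-sided, with Benjamini-Hochberg adjustment over all genes and a threshold of 0.05. Log2 CPM used a prior count of 2. At these depths 3 counts correspond to 0.096 to 0.164 CPM, which covers counting error only. No 2 libraries were near copies: within groups, chi-square divided by its degrees of freedom was at least 11.9 for each pair. The steps were tested on simulated data.

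Genes named were the 9 markers, Th, Slc6a3, Slc18a2 and Ddc, up to 3 genes of smallest p per marker list and the 3 genes most like each marker, not all of which are reported here. Nr4a2, Otx2 and Ercc1 were named in addition where the text turned on them. The markers and lists were chosen with earlier results of these data known. Alternatives were other scalings, filters and tools (DESeq2 1.42.0, limma-voom 3.58.1), a replicate block, covariates, a length and GC offset (lowess span 0.3), other treatments of transcript rows and leaving out each library. The thalamic, hypothalamic and cortical covariates were added after seeing the data.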

Additional observations from a re-analysis of the deposited data

Results flagged for a closer look

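Calb1 in Ercc1 delta/+ replicate 2, at 80.2 CPM, stood far below the other 3 mutant libraries. The gap to its nearest neighbour was 0.922 of the range of the group, above Dixon's 95% critical value for 4 samples. It was the one library so marked among 20 groups of 4 values examined, and chance marks about 1 group in 20. Marker lists outside that check also set this library apart from the other mutant libraries. Its hypothalamic and mammillary markers summed to 34.9 CPM against 97.6 to 178 CPM, and its serotonergic genes to 85.3 CPM against 0.578 to 7.24 CPM. Its 18 general dopaminergic genes, at 601 CPM, lay within the range of the others, 478 to 682 CPM. A link of these levels to its Calb1 value was not tested.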

How the results depend on the processing

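No marker passed the threshold under any of 25 alternatives: of 224 marker values, 207 kept their direction and 17 turned it. The number of all genes past the threshold, 7 in the main test, was 33 with RLE scaling (12 higher, 21 lower), 77 with upper-quartile scaling (21 higher, 56 lower), 93 with a stricter filter, 1052 with DESeq2, 299 with edgeR's exact test and 52 with limma-voom. It was 34 with transcript rows summed, 4 with every transcript row, 1 with the dopaminergic covariate, the thalamic covariate, the depth term or the length and GC offset (0 higher, 1 lower), 2 with the cortical covariate, and 0 with the choroid plexus or the hypothalamic covariate. Leaving out 1 library gave 0 to 310 genes, the highest count being that without Ercc1 delta/+ replicate 2. The other mutant replicates, 1, 3 and 4, gave 3, 17 and 0 when each was left out, and wild type replicate 1 gave 2 and each other wild type replicate 1.

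Same-numbered libraries had correlations of deviations of -0.27, 0.17, -0.12 and 0.26, so the numbers were not taken to pair samples; with the replicate number as a block 0 genes and 0 markers passed. The log2 fold change of Slc10a4 turned to -0.00103 with upper-quartile scaling, -0.13 with the depth term, -0.0698, -0.304 and -0.114 with the thalamic, hypothalamic and cortical covariates, and ran from -0.13 to 0.23 when 1 library was left out. That of Aldh1a7 turned to 0.0495 with the dopaminergic and 0.0648 with the choroid plexus covariate, and ran from -0.37 to 0.0554 when 1 library was left out. That of Gucy2c turned to 0.15 with the choroid plexus and 0.25 with the hypothalamic covariate, under which Calb1 was at 0.20, Calb2 at 0.37 and Slc17a6 at 0.0176. Under the same covariate Aldh1a1 was at -0.91 (adjusted p = 0.141) and Ntsr1 at 0.45 (adjusted p = 0.184). The cause was not tested. The nigral contrast, 0.17, ran from -0.0870 to 0.34 when 1 library was left out, with the lowest value without Ercc1 delta/+ replicate 2 and 0.04 without wild type replicate 4. Gucy2c, the marker of lowest count, did not reach the stricter filter.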
